A study of Mus musculus with 48 samples.

Results

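D-type cyclins, the kinases they bind, the inhibitors of those kinases and the Myc proteins together set whether a cell passes from G1 into S phase. Their RNA was followed here as 10 genes of the 21025 gene models in the files: Ccnd1 (CCND1), Ccnd2 (CCND2), Ccnd3 (CCND3), Cdk4 (CDK4), Cdk6 (CDK6), Cdkn1a (CDKN1A), Cdkn1b (CDKN1B), Cdkn2c (CDKN2C), Myc (MYC) and Mycn (MYCN). The genes were taken by name, and each of the 10 was found in 1 row of every RNA library. The study asks which genes depend on Ikaros, a zinc finger DNA-binding protein (gene Ikzf1), at successive steps of early B-cell development. Of 48 mouse samples, 30 are RNA-sequencing libraries and were used, and the other 18, chromatin immunoprecipitation libraries, were not analysed here.

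All cells were C57BL/6. In 3 settings, total pro-B cells, pro-B cells with high c-Kit and pro-B cells that lack Rag2, the control was Ikzf1(fl/+) Cd79a(Cre/+) and the deleted counterpart Ikzf1(fl/-) Cd79a(Cre/+), with 2 libraries each. Controls therefore carry Cre as well, together with 1 floxed and 1 wild-type Ikzf1 allele, and Cre sits in the B-lineage gene Cd79a. Titles of the chromatin libraries write such pro-B controls as Ikzf1(∆/+) and deleted cells as Ikzf1(∆/-), with the floxed allele deleted in both. By those titles controls keep 1 intact Ikzf1 allele, so deleted cells are not set against wild-type cells. The state of the floxed allele in the RNA libraries was not tested. The Rag2(-/-) genotype is shared by controls and deleted cells of the third setting. Such cells cannot rearrange immunoglobulin genes and lack a pre-B cell receptor. Total pre-B cells were wild-type, with 2 libraries. Pre-pro-B cells were cultured. These cells were Ebf1(-/-), so they lack the B-lineage factor EBF1 in every arm. They carried an empty vector, the control hairpin Ren713, or 1 of the 2 hairpins against Ikzf1, Ik4056 and Ik2709. Each of these arms has 4 libraries. No label ties replicates to separate animals or cultures. The p-values therefore reflect the scatter among these libraries alone, which may be technical.

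Cyclins D1, D2 and D3 bind and activate CDK4 and CDK6, which phosphorylate the retinoblastoma protein and so release E2F factors that turn on genes of DNA replication. p18INK4c, the product of Cdkn2c, binds the kinases directly, while p21 (Cdkn1a) and p27 (Cdkn1b) bind cyclin-kinase complexes. Myc and N-Myc are related transcription factors that drive growth and division. In the B lineage, cyclin D3 is the D cyclin required for the expansion of pro-B and pre-B cells, cyclin D2 responds to cytokine and antigen receptor signals, and cyclin D1 is scarce in normal lymphocytes.

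The sequences just upstream of the starts of Ccnd3, Cdkn1a, Mycn and Cdk4 are shown because the first 3 genes were called lower with loss of Ikaros and Cdk4 holds several copies of a searched motif. They come from RefSeq on GRCm38.p6 and cover the 250 bases before each annotated start, read 5′ to 3′ on the strand of the gene. The table matched 7 of the 10 members, with 10 starts. Ccnd1, Ccnd2 and Myc had no window there, so their upstream sequences were not searched. Capitals mark matches on either strand to TGGGAA (the core bound by Ikaros), CACGTG (an E-box, bound by Myc and other factors), TTTGGCGC or TTTCGCGC (E2F sites) or TTCNNNGAA (a STAT site). Of 32851 windows of that length, 21.6% hold the Ikaros core, 6.02% the E-box, 0.417% and 0.256% the E2F sites and 7.02% the STAT site.
Ccnd3, first start, chr17:47504801-47505050, plus strand: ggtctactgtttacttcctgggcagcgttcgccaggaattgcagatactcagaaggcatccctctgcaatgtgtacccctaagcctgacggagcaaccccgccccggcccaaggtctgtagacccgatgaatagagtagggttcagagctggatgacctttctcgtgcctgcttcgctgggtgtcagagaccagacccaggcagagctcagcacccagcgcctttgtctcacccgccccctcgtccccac
Ccnd3, second start, chr17:47593217-47593466, plus strand: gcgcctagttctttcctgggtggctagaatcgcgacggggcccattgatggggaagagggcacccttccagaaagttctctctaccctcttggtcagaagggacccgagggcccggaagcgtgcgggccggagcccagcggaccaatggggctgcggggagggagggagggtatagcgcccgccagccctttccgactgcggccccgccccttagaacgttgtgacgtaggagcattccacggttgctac
Cdkn1a, second start, chr17:29093519-29093768, plus strand: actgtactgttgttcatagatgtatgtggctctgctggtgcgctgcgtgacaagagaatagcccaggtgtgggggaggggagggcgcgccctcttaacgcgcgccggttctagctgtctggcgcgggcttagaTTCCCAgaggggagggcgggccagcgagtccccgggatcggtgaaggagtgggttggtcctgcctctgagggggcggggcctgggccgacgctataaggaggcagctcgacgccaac
Mycn, chr12:12941837-12942086, minus strand: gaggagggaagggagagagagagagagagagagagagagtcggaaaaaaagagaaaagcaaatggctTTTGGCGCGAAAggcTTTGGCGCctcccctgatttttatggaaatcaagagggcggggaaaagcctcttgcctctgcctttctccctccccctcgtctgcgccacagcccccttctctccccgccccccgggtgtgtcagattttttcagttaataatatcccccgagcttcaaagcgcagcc
Cdk4, chr10:127063285-127063534, plus strand: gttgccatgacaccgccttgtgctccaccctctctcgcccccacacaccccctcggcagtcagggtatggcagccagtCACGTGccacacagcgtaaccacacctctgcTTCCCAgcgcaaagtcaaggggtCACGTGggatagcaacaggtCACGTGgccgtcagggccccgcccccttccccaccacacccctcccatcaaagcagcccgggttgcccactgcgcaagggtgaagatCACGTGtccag
Neither Ccnd3 window holds a searched motif. The Cdkn1a window has 1 Ikaros core, in its reverse form, 117 bases before the start, and the window of the other Cdkn1a start at chr17:29090729-29090978 has none. The Mycn window has 2 copies of TTTGGCGC, 183 and 168 bases before the start, and the first overlaps 1 reverse copy of TTTCGCGC. The Cdk4 window has 4 E-boxes, 172, 118, 98 and 11 bases before the start, and 1 Ikaros core. Of the other windows, only that of Cdk6 has a match, 1 E-box 220 bases before the start. These matches describe the letters only.

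Values are RPKM as the authors computed them, read density scaled by gene length and library size, so levels can be compared between genes. Differences are of log2(RPKM + 1), a scale that makes changes of low genes look smaller than they are, and come from limma over all expressed genes. Called means an adjusted p under 0.05 (Benjamini-Hochberg, two-sided). Where 2 libraries are set against 2, lack of overlap arises often without a change, and its share over all genes was not counted. The steps between low RPKM values imply depths of 2.31 to 36.1 M reads (M for mega) in 26 libraries, with a c-Kit-high control the shallowest of these. In 4 libraries no single step size fitted well enough, so their depth was not read. Ikzf1 itself stood at 106 to 145 RPKM in the control pre-pro-B libraries and 23.7 to 60.6 with hairpins. Total pro-B cells held 59.2 and 56.4 RPKM in controls and 45.3 and 48.9 in deleted libraries, a log2 difference of -0.29 ± 0.14 (SE, adjusted p = 0.178). The c-Kit-high values were 101 and 124 RPKM with controls and 64.5 and 86 after deletion (log2 -0.58 ± 0.14 SE, adjusted p = 0.0144), and in Rag2-null cells 62.3 and 56.2 against 39.9 and 36.7 (log2 -0.62 ± 0.14 SE, adjusted p = 0.00893). RPKM is summed over the gene model and so does not show whether an exon is deleted. Of the B-lineage markers, Cd79a stood at 213 to 1397 RPKM in pro-B and pre-B libraries and at most 0.196 in pre-pro-B libraries, and Pax5 at 70.6 to 331 and at most 0.296 RPKM. The 10 markers of this list summed to 2829 to 6197 RPKM in pro-B and pre-B and 43.9 to 104 in pre-pro-B libraries. Control pre-pro-B libraries had 8 of the 10 called lower than total pro-B controls and 0 higher, beside 30.1% of all genes lower. After deletion 2 rose and 5 fell in total pro-B, 0 and 2 in c-Kit-high and 1 and 0 in Rag2-null cells. With hairpins 3 of 7 tested rose and 3 fell. All-gene shares of these comparisons are given below. The 8 granulocyte markers summed to 7519 to 7779 RPKM in pre-B, 105 to 679 in c-Kit-high and at most 0.733 in total and Rag2-null pro-B libraries.

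With loss of Ikaros, Ccnd3 was called lower in each of the 3 deletions and in the knock-down, Ccnd2 was called higher in 3 of these 4 comparisons, and Ccnd1 in 2. Cdk4, Cdk6 and Cdkn2c were called in none of these 4 comparisons in the main fits. All 3 were called in the knock-down when the run of libraries was fitted as a block. Cdk4 and Cdk6 also passed under some other alternatives, given below. In total pro-B cells 3 of 10 members were called (1 up, 2 down), beside 23.4% of all 11937 genes tested. In c-Kit-high cells 2 were called (1 up, 1 down), against 17.2% of genes. In Rag2-null cells 4 were called (2 up, 2 down), against 22.3%. Of 10744 genes tested in pre-pro-B cells 19.4% were called with the hairpins, and 5 members (3 up, 2 down). With 10 members, each count is given beside that share only as a description. The median log2 difference over the 10 members was 0.10, 0.11, -0.21 and 0.04 in the same order, and over all genes 0.03, 0.03, 0.06 and 0.01.

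**Figure D1:**
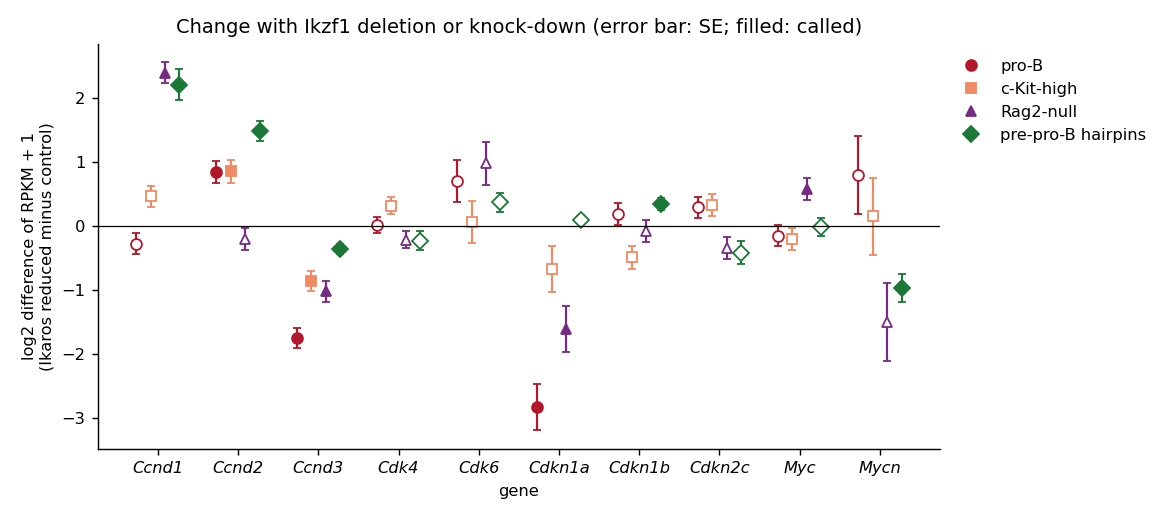
Log2 difference of RPKM + 1 (vertical axis) between libraries with Ikzf1 deleted or knocked down and their controls, for each of the 10 genes (horizontal axis). Error bars are SE and filled symbols passed the test; Ccnd3 is filled and below 0 in all 4 comparisons, from -1.75 in pro-B cells to -0.36 with hairpins.

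Ccnd3 encodes the D cyclin with the highest RNA level in every control group. In total pro-B cells the 2 controls had 505 and 503 RPKM and the 2 deleted libraries 161 and 139, a log2 difference of -1.75 ± 0.16 (SE, adjusted p = 8.93e-06). The c-Kit-high controls had 511 and 424 RPKM against 243 and 271 after deletion, a difference of -0.86 ± 0.16 (SE, adjusted p = 0.0026). In Rag2-null cells the controls held 494 and 711 RPKM and the deleted libraries 288 and 296, a difference of -1.02 ± 0.16 (SE, adjusted p = 0.00068). Deleted libraries lay below every control of their own setting in all 3 cases, and the deleted total pro-B libraries were the lowest of all pro-B libraries. None of these 3 calls was lost in any alternative that was run.

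Ccnd2, the cytokine-responsive D cyclin, was higher after deletion in both Rag2-intact settings. It went from 129.7 and 137 to 219.8 and 262 RPKM in total pro-B cells, a log2 difference of 0.84 ± 0.17 (SE, adjusted p = 0.00369). In c-Kit-high cells it went from 98.8 and 65.4 to 151 and 141 RPKM, a difference of 0.85 ± 0.17 (SE, adjusted p = 0.00447). Deleted and control libraries did not overlap in either. The Rag2-null libraries did overlap, at 135 and 114 RPKM in controls and 98.2 and 119 after deletion, a difference of -0.2 ± 0.17 (SE, adjusted p = 0.478). In c-Kit-high cells a control and a deleted library carry consecutive library numbers. Without control replicate 2 the Ccnd2 difference was 0.56 (adjusted p = 0.0444). Within the consecutive pair it was 0.51 and between the other 2 libraries 1.2, against -0.92 and -0.80 for Ccnd3.

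Ccnd1, by contrast, was called only in the Rag2-null setting among the deletions. In Rag2-null cells it stood at 2.05 and 2.60 RPKM in controls and 18.4 and 14.5 after deletion, a log2 difference of 2.39 ± 0.16 (SE, adjusted p = 9.09e-07), the largest rise of any member in the 3 deletions. Total pro-B cells held 15.4 and 17.6 RPKM in controls and 12.4 and 14.6 after deletion, a difference of -0.27 ± 0.16 (SE, adjusted p = 0.26). The c-Kit-high libraries held 4.82 and 5.01 RPKM in controls and 7.19 and 7.10 after deletion, a difference of 0.46 ± 0.16 (SE, adjusted p = 0.0688). The deleted Rag2-null libraries thus reached the level of the total pro-B controls, from a control level that was lower. Transcripts of stromal and endothelial cells differed as well, in each of the 3 settings. Cxcl12, a stromal chemokine, was 2.23 and 5.20 RPKM in Rag2-null controls and 34.3 and 17.6 after deletion, and Col1a1 was 1.76 and 3.62 against 16.5 and 13.4. In total pro-B cells Cxcl12 was 31.2 and 45.3 RPKM in controls and 9.89 and 9.60 after deletion, while Cdh5, the endothelial cadherin gene, was 0.238 and 0.122 against 7.70 and 2.97. There 2 of the 7 stromal and endothelial markers were called higher and 3 lower, and their sum was 82 to 115 RPKM in controls and 55.7 to 61.9 after deletion. The same 7 genes summed to 22.9 to 25 RPKM in Rag2-null controls and 128 to 189 after deletion, of which 105 and 63.4 were Cdh5. In c-Kit-high cells they summed to 43.1 to 57.5 RPKM in controls and 116 to 153 after deletion, with 2 called higher and 0 lower. The 4 progenitor markers summed to 27.7 to 27.9 RPKM in Rag2-null controls and 168 to 204 after deletion, and to 55.2 to 67.3 and 149.8 to 182 in c-Kit-high cells. The part of either set in the member values was not tested. In such bulk samples fewer cells of a type and less RNA per cell cannot be told apart.

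Whether the deletion acted differently between settings was tested as an interaction. Total pro-B libraries enter both tests, so the 2 share those samples. The Ccnd1 change was larger in Rag2-null than in total pro-B cells by 2.66 ± 0.23 (SE, adjusted p = 5.16e-05), and the Ccnd2 change was smaller by 1.04 ± 0.25 (SE, adjusted p = 0.0145). These were the 2 called members, beside 13.1% of all genes. The Ccnd2 call was lost without control replicate 1 or deleted replicate 2 of total pro-B cells or deleted replicate 1 of Rag2-null cells, at log2 values of -1.0, -0.92 and -0.91, as well as in the fit of all 30 libraries. That fit called Ccnd3, Cdkn1a and Mycn instead (0.73, 1.22 and -2.29), and without Rag2-null control replicate 2 Ccnd3, Cdkn1a and Myc were called as well. Between c-Kit-high and total pro-B cells, Ccnd3 differed by 0.89 ± 0.23 (SE, adjusted p = 0.037) and Cdkn1a by 2.15 ± 0.52 (SE, adjusted p = 0.0346), both smaller falls in c-Kit-high cells, beside 6.7% of all genes. With no filter on low values the Ccnd3 call was lost (adjusted p = 0.0628). Leaving out any of the 8 libraries ended the Cdkn1a call, and any but c-Kit-high control replicate 1 ended the Ccnd3 call. Their values were then 2.01 to 2.3 for Cdkn1a and 0.75 to 0.99 for Ccnd3 where its call was lost.

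With hairpins against Ikzf1, all 3 D-cyclin genes were called in pre-pro-B cells. Ccnd2 was 45.6, 57, 38.4 and 81.4 RPKM with the empty vector and 48.5, 65.2, 44.2 and 65.3 with Ren713. Ik4056 gave 156, 157, 143 and 204 RPKM and Ik2709 gave 142, 118, 131 and 191. Every hairpin library lay above every control, by a log2 difference of 1.48 ± 0.15 (SE, adjusted p = 3.1e-06). Ccnd1 was 1.43, 2.30, 1.77 and 4.32 RPKM with the empty vector and 1.91, 2.54, 1.59 and 2.72 with Ren713, and 7.56, 13, 5.69 and 20.7 with Ik4056 and 14.7, 18.1, 13 and 31.9 with Ik2709. No hairpin library overlapped a control, and the difference was 2.2 ± 0.25 (SE, adjusted p = 8.04e-06). Ccnd3 was 170.1, 178, 178 and 156 RPKM with the empty vector and 172, 179.9, 201 and 158 with Ren713, and 132, 127, 137 and 121 with Ik4056 and 148, 135, 161 and 125 with Ik2709. Its groups overlapped slightly, since 1 Ik2709 library exceeded 2 of the 8 controls, and the difference of -0.36 ± 0.07 (SE, adjusted p = 0.00158) was the smallest among the Ccnd3 changes.

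**Figure D2:**
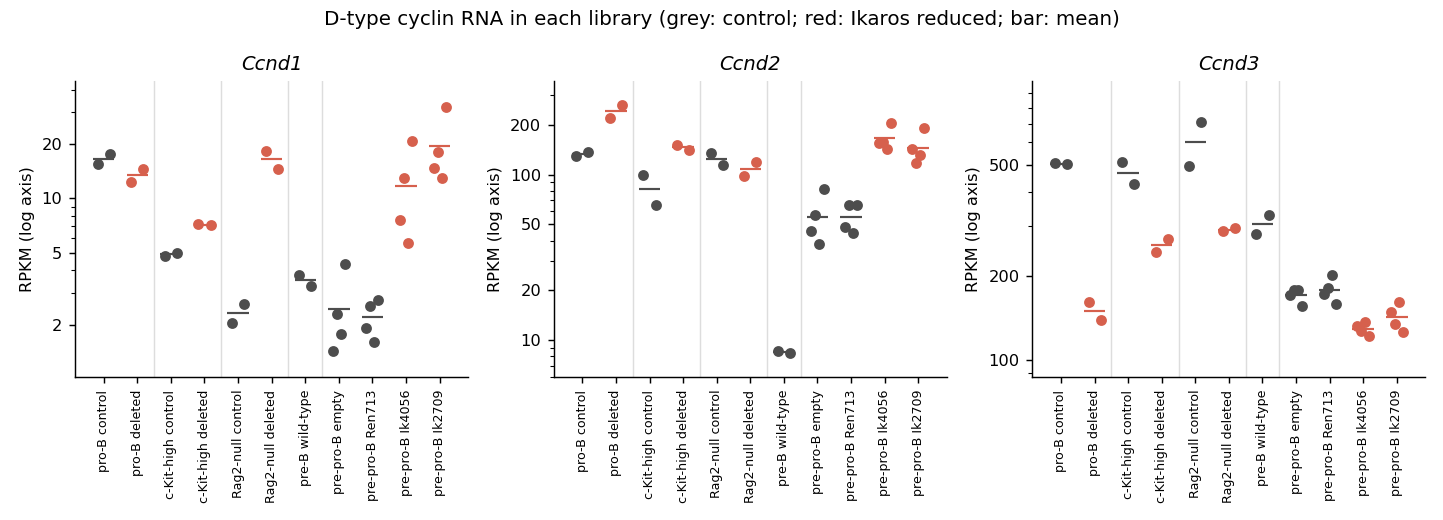
RPKM of Ccnd1, Ccnd2 and Ccnd3 (vertical log axis) in each of the 30 libraries by group (horizontal axis); each point is a library, bars are group means, grey is control and red is Ikzf1 deleted or knocked down. Hairpin libraries lie at 118 to 204 RPKM of Ccnd2 and controls at 38.4 to 81.4.

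The sum and the make-up of D-cyclin RNA are given as a description, with no test. In total pro-B controls the 3 genes summed to 650.3 and 657 RPKM, and after deletion to 393 and 416. Ccnd3 made up 77.7 and 76.5% of this sum in the controls and 40.9 and 33.5% after deletion. The Ccnd2 to Ccnd3 ratio went from 0.257 and 0.272 to 1.37 and 1.88, so Ccnd2 became the more abundant of the 2 in both deleted libraries. In c-Kit-high cells the ratio was 0.193 and 0.154 in controls and 0.623 and 0.520 after deletion, and the sum was 615 and 495 RPKM in controls and 402 and 418 after deletion. In Rag2-null cells the ratio was 0.274 and 0.161 in controls and 0.341 and 0.402 after deletion, and the sum was 632 and 828 RPKM in controls and 405 and 429 after deletion. The sum was thus lower after each deletion. In pre-pro-B cells it was higher with hairpins, 271 to 348 against 217 to 248 RPKM in controls, and the ratio was 0.814 to 1.68 against 0.216 to 0.522.

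**Figure D3:**
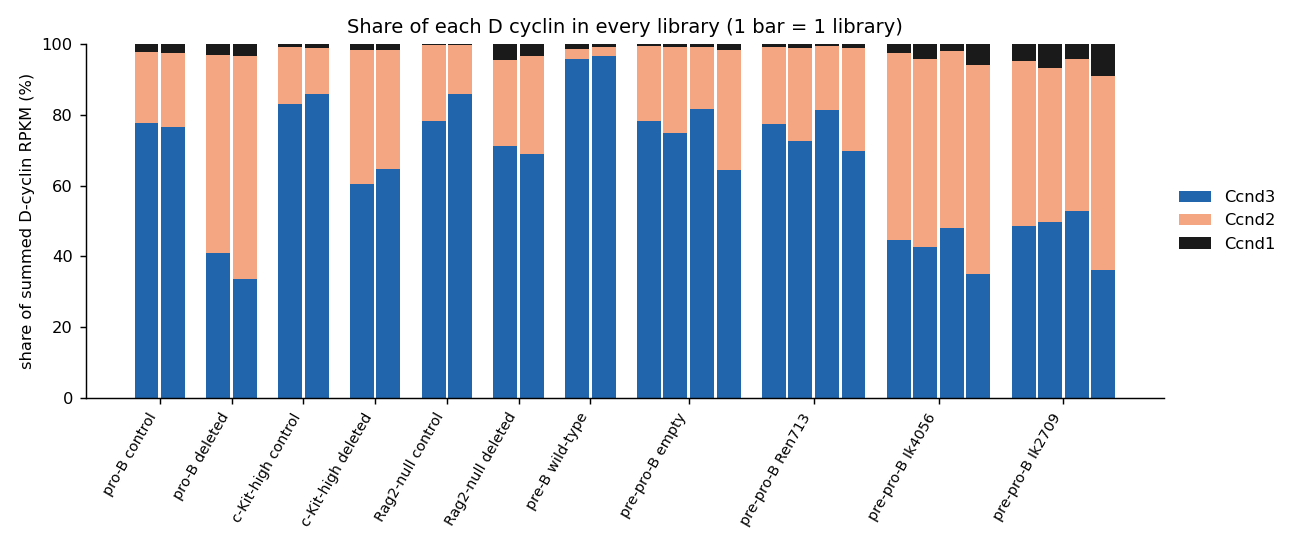
Share of Ccnd1, Ccnd2 and Ccnd3 in the summed D-cyclin RPKM (vertical axis, percent) in every library, grouped along the horizontal axis; each bar is a library. Ccnd3 takes 95.8 to 96.6% in pre-B cells, 76.5 to 77.7% in pro-B controls and 33.5 to 40.9% in deleted pro-B cells.

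In the main fits neither partner kinase gene was called in any of the 3 deletions or in the knock-down. Cdk4, the more abundant one, was 598 and 535 RPKM in total pro-B controls and 592 and 552 after deletion, a log2 difference of 0.02 ± 0.13 (SE, adjusted p = 0.966). In c-Kit-high cells the controls had 235 and 251 RPKM and the deleted libraries 336 and 273 (log2 0.32 ± 0.13 SE, adjusted p = 0.119), which passed only after quantile normalization (adjusted p = 0.03). In Rag2-null cells the controls had 799.9 and 952 RPKM and the deleted libraries 764 and 740.4 (log2 -0.21 ± 0.13 SE, adjusted p = 0.282). Controls and deleted libraries overlapped only in total pro-B cells, but none of the 3 differences was called in the main fit. Cdk6, the less abundant of the 2 kinases throughout, was 35.2 and 35.9 RPKM in total pro-B controls and 51.3 and 66.6 after deletion, and 18.4 and 24.1 against 35.6 and 50.6 in Rag2-null cells. Deleted libraries lay above controls in both, with log2 differences of 0.7 ± 0.33 (SE, adjusted p = 0.165) and 0.98 ± 0.33 (SE, adjusted p = 0.0606). Each of these passed the test only with the compared libraries alone (adjusted p = 0.00833 and 0.0429) or, for Rag2-null cells, also with all 30 libraries in a single fit. In c-Kit-high cells Cdk6 spread as widely within groups as between them, at 83.5 and 45.2 RPKM in controls and 47.4 and 87.1 after deletion. The pair with consecutive library numbers holds the higher value of each group.

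In pre-pro-B cells Cdk4 was 734 to 1199 RPKM in controls and 657 to 1065 with hairpins, and Cdk6 26.5 to 50.4 and 34.2 to 60.7. Neither passed the test, at log2 differences of -0.23 ± 0.14 (SE, adjusted p = 0.333) and 0.37 ± 0.15 (SE, adjusted p = 0.108), although Cdk4 did after quantile normalization (adjusted p = 0.00733) and Cdk6 without Ren713 replicate 4 (adjusted p = 0.0263). The 16 libraries fall into 4 runs of consecutive library numbers, and libraries of a run deviate together. Within runs the Cdk4 difference was -0.35, -0.22, -0.15 and -0.19, and the Cdk6 difference 0.48, 0.23, 0.46 and 0.3, each of 1 sign in all 4 runs. With the run as a replicate block both passed the test (adjusted p = 0.000354 and 6.14e-05), as did Cdkn2c (adjusted p = 0.000561), which made 8 called members where the fit without the block had 5. Of all 10744 genes tested, 5575 were called with the block and 2086 without it.

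Cdkn1a, the p21 gene, fell in total pro-B and Rag2-null cells. p21 is induced by p53 and by differentiation signals and holds cells in G1. Its RNA was 51.5 and 55.5 RPKM in total pro-B controls and 7.52 and 5.94 after deletion, a log2 difference of -2.82 ± 0.36 (SE, adjusted p = 0.000307). Rag2-null controls had 63.5 and 146 RPKM and deleted libraries 23.2 and 41.4, a difference of -1.61 ± 0.36 (SE, adjusted p = 0.0104). The c-Kit-high libraries had 40.4 and 49 RPKM in controls and 25.1 and 30.4 after deletion, a difference of -0.67 ± 0.36 (SE, adjusted p = 0.257) that passed only with the compared libraries alone (adjusted p = 0.0403). Deleted libraries were below controls in all 3 settings. The 2 Rag2-null controls lay far apart, and each decides the size of the difference. It was -2.2 without control replicate 1 and -1.01 without control replicate 2, and the call was lost without deleted replicate 1 (-1.2) and with the compared libraries alone (adjusted p = 0.103). Pre-pro-B cells held 118 to 141 RPKM in controls, 125, 115, 149.6 and 115 with Ik4056 and 156, 138, 161 and 149 with Ik2709, a difference of 0.1 ± 0.07 (SE, adjusted p = 0.396) over both hairpins.

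Cdkn1b, which encodes p27, the inhibitor typical of resting cells, did not pass the test in any deletion. Its values were 35.3 and 37.1 RPKM in total pro-B controls and 42.3 and 40.2 after deletion (log2 0.18 ± 0.17 SE, adjusted p = 0.514). In c-Kit-high cells they were 114 and 127 RPKM in controls and 80.0 and 91.6 after deletion (log2 -0.49 ± 0.17 SE, adjusted p = 0.0735), with no overlap. After quantile normalization that difference passed, at log2 -0.53, and after median-ratio scaling also, at -0.56. Rag2-null libraries overlapped, at 52.3 and 33.8 RPKM in controls and 44.6 and 35.7 after deletion. With hairpins Cdkn1b rose in pre-pro-B cells, from 21.8, 18, 22.3 and 19 RPKM with the empty vector and 23.6, 16.7, 21.1 and 20.0 with Ren713 to 30.7, 24.2, 27.3 and 22.8 with Ik4056 and 30.3, 24.5, 25.6 and 22.7 with the other hairpin. The groups overlapped at the edge, and the log2 difference was 0.34 ± 0.09 (SE, adjusted p = 0.0119).

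Cdkn2c, which encodes the CDK4 and CDK6 inhibitor p18INK4c, was 40.2 and 35.9 RPKM in total pro-B controls and 45.4 and 47.9 after deletion. The c-Kit-high controls had 45.9 and 35.9 RPKM against 44.2 and 59.1 after deletion, and in Rag2-null cells 37.1 and 38.5 against 25.6 and 34.3. The log2 differences were 0.29 ± 0.17, 0.33 ± 0.17 and -0.34 ± 0.17 (SE; adjusted p = 0.256, 0.224 and 0.182), none called. In pre-pro-B cells the level was lower in every library than in any pro-B or pre-B library, 6.19 to 11.9 RPKM in controls and 3.88 to 9.99 with hairpins (log2 -0.41 ± 0.18 SE, adjusted p = 0.14). With the run as a block this difference passed the test (adjusted p = 0.000561).

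**Figure D4:**
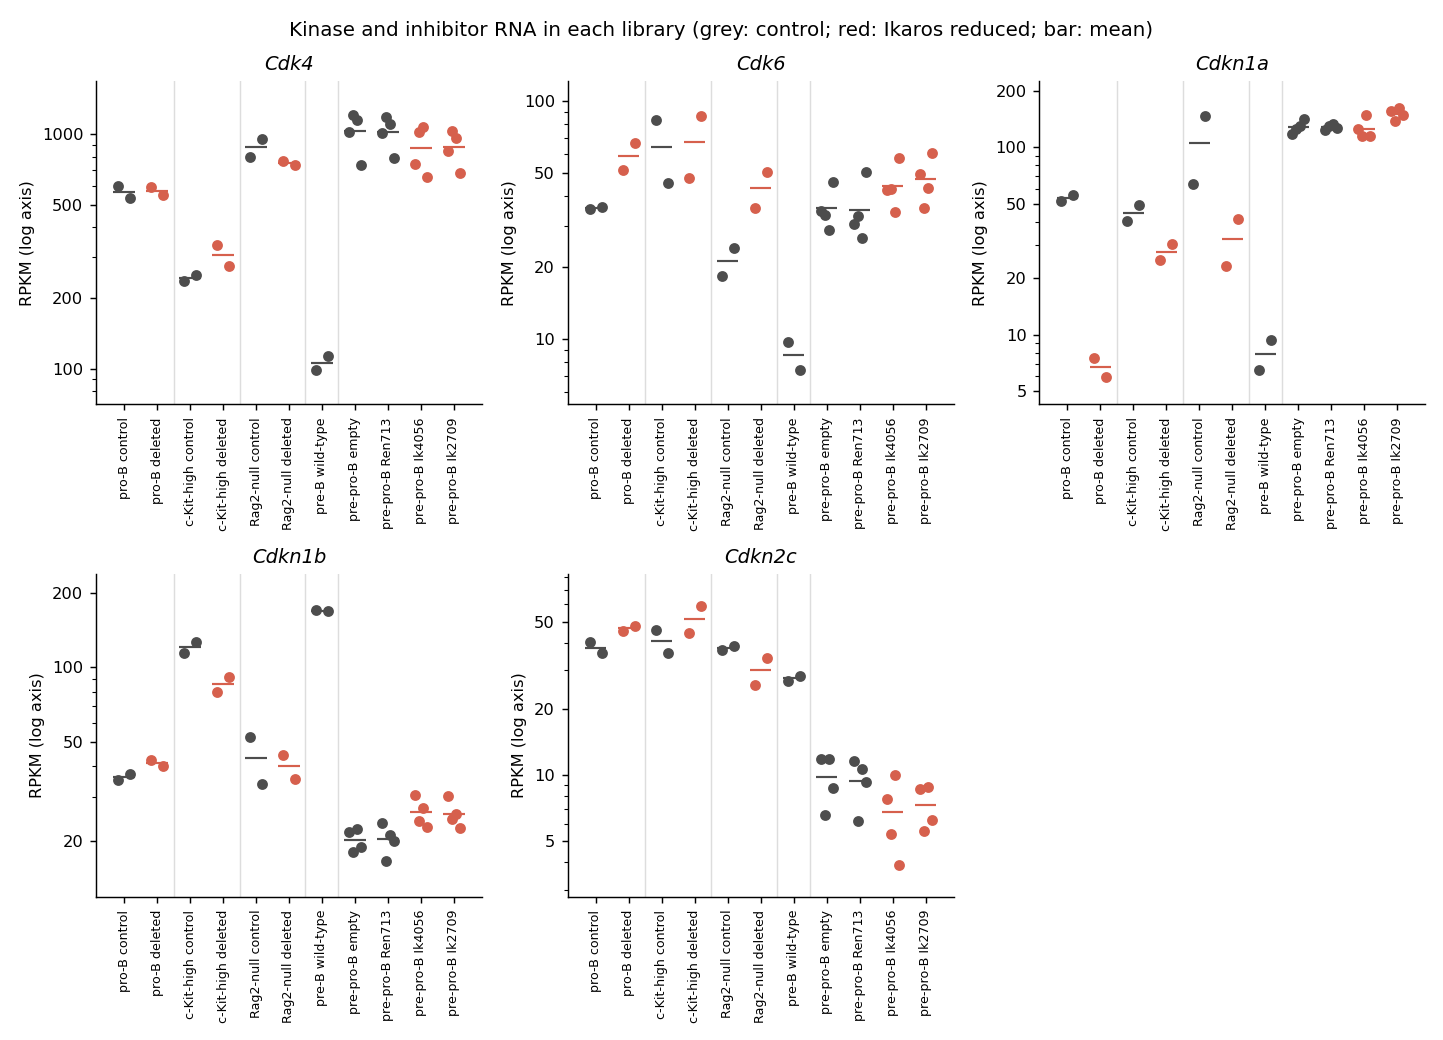
RPKM of Cdk4, Cdk6, Cdkn1a, Cdkn1b and Cdkn2c (vertical log axis) in each of the 30 libraries by group (horizontal axis); each point is a library, bars are group means, grey is control and red is Ikzf1 deleted or knocked down. Cdkn1a stands at 7.52 and 5.94 RPKM in the deleted pro-B libraries and at 51.5 and 55.5 in their controls.

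Myc was not called with loss of Ikaros in Rag2-intact cells. It was 259.7 and 273 RPKM in total pro-B controls and 257 and 225 after deletion (log2 -0.15 ± 0.17 SE, adjusted p = 0.601), and 115 and 85.9 against 88.4 and 83.5 in c-Kit-high cells (log2 -0.21 ± 0.17 SE, adjusted p = 0.462). Rag2-null cells had 145 and 209 RPKM in controls and 242 and 280.1 after deletion, higher in both deleted libraries by 0.58 ± 0.17 (SE, adjusted p = 0.0291). That call did not hold widely. It was lost after median-ratio scaling (0.43), with no filter, with all 30 libraries, with the compared libraries alone, and without control replicate 1 (0.32), deleted replicate 1 (0.68) or deleted replicate 2 (0.47). In pre-pro-B cells Myc was 118 to 216 RPKM in controls and 112 to 210.1 with hairpins, a difference of -0.01 ± 0.14 (SE, adjusted p = 0.977), and its spread followed the run, with run differences between -0.04 and 0.02.

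Mycn is expressed mainly in early progenitors, and its RNA was highest in pre-pro-B cells. It stood there at 70.9, 37.4, 53.1 and 64.3 RPKM with the empty vector and 66.5, 30.3, 49.4 and 75.7 with Ren713, and at 42.5, 22.5, 29.8 and 37.9 with Ik4056 and 29, 13.5, 22.3 and 28.8 with Ik2709. Pooled over runs the groups overlap, but within each run every hairpin library lay below both controls, with run differences of -0.95, -0.91, -0.96 and -1.05. The log2 difference was -0.97 ± 0.21 (SE, adjusted p = 0.00382). In pro-B cells Mycn was low, with 6.16 and 6.96 RPKM in total controls and 10.7 and 13.7 after deletion (log2 0.79 ± 0.6 SE, adjusted p = 0.404), a difference that passed only with the compared libraries alone (adjusted p = 0.0116). The c-Kit-high libraries had 1.25 and 0.499 RPKM in controls and 0.739 and 1.39 after deletion. The lowest of these, in the shallowest library whose depth could be read, rests on about 3 reads. Rag2-null controls were far apart, at 2.19 and 12.4 RPKM, with 0.456 and 2.71 after deletion (log2 -1.5 ± 0.6 SE, adjusted p = 0.111), and the size changed with the library left out. It was -2.53 without control replicate 1, the one case that passed, -0.46 without control replicate 2 and -0.82 without deleted replicate 1.

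**Figure D5:**
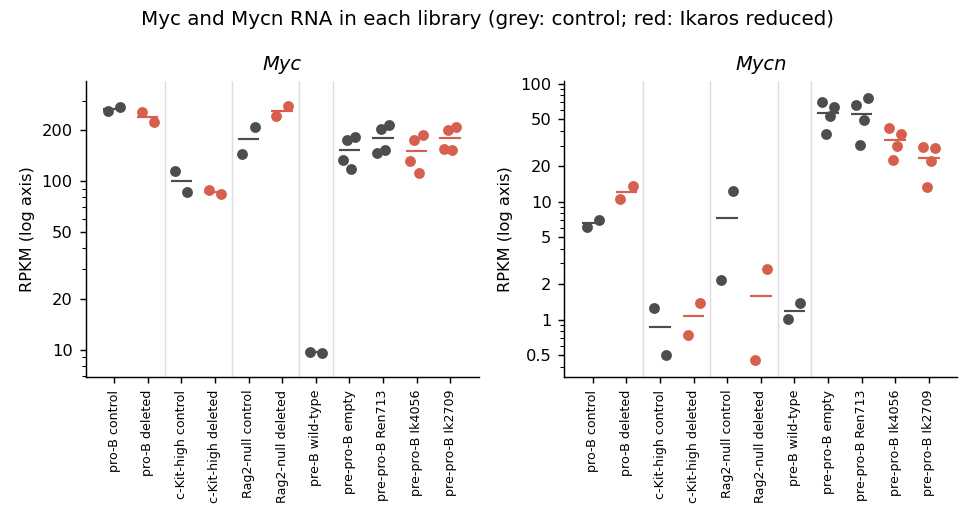
RPKM of Myc and Mycn (vertical log axis) in each of the 30 libraries by group (horizontal axis); each point is a library, bars are group means, grey is control and red is Ikzf1 deleted or knocked down. Myc spans 9.62 to 9.64 RPKM in pre-B cells and 259.7 to 273 in pro-B controls, and Mycn is highest in the pre-pro-B controls, at 30.3 to 75.7.

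The 2 hairpins were set against each other and against the same controls, which they share. Ccnd2 differed from controls by 1.58 ± 0.19 with Ik4056 and 1.38 ± 0.19 with Ik2709 (log2, SE), Ccnd1 by 1.83 ± 0.3 and 2.58 ± 0.3, and Mycn by -0.72 ± 0.26 and -1.22 ± 0.26. Directly compared, 0 of 10 members were called with limma, and 2 (Ccnd1 and Cdkn1a) had an unadjusted p under 0.05. Of all genes 3.33% were called. For Ccnd1, the log2 difference of Ik4056 minus Ik2709 was -0.75 ± 0.35 (SE, adjusted p = 0.437). With the run as a block 4 members were called between the hairpins, with Ik4056 lower for Ccnd1 (-0.75), Cdkn1a (-0.27) and Myc (-0.26), and higher for Mycn (0.5). Of all 10744 genes tested, 2407 were called between the hairpins with the block and 358 without it. Ren713 against the empty vector gave 0 called members and 0% of all genes with limma, with 58 genes at an unadjusted p under 0.05, and 9 genes called with the run as a block. Several myeloid marker genes differed with the hairpins, in both directions. The 8 granulocyte markers summed to 21.7 to 90.4 RPKM in controls and 114 to 429 with hairpins, with S100a8 and S100a9 at 0 in all 16 libraries, and the 7 macrophage markers to 19.6 to 39.4 and 52.2 to 88.4. Of 5 macrophage markers tested 3 were called higher with hairpins and 2 lower, and all 3 granulocyte markers tested were higher. Progenitor markers, 4 genes, summed to 366 to 524 RPKM in controls and 541 to 747 with hairpins. Their part in the cyclin differences was not tested.

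Control stages were compared next, and these comparisons share control libraries. Wild-type pre-B cells, compared with total pro-B controls, had all members but Cdkn1b lower, and all 10 were called (1 up, 9 down), beside 68.8% of all genes. Myc was 9.64 and 9.62 RPKM in pre-B cells and 259.7 and 273 in pro-B controls, a log2 difference of -4.65 ± 0.17 (SE, adjusted p = 8.21e-10). Ccnd2 was 8.64 and 8.39 RPKM in pre-B cells (difference -3.82 ± 0.17 SE, adjusted p = 4.21e-09) and Cdk4 98.5 and 113 (difference -2.41 ± 0.13 SE, adjusted p = 1.18e-08). Ccnd3, at 282 and 329.6 RPKM, fell least of the D cyclins, by 0.72 ± 0.16 (SE, adjusted p = 0.0015), and so made up nearly all D-cyclin RNA there. Cdkn1b was 170.3 and 168 RPKM in pre-B cells, the highest of any group, and the difference from total pro-B controls was 2.19 ± 0.17 (SE, adjusted p = 2.88e-07). Cdkn1a fell to 6.49 and 9.34 RPKM and Cdk6 to 9.67 and 7.41. The calls of Cdkn2c (-0.45) and Mycn (-1.78) were lost when any of the 4 libraries was left out, at -0.53 to -0.37 and -1.9 to -1.67. The Cdkn2c call was also lost with no filter, after quantile normalization, after median-ratio scaling and in the fit of all 30 libraries (adjusted p = 0.0524, 0.0888, 0.102 and 0.217).

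Markers of other blood cells were higher in the pre-B libraries. All 8 granulocyte markers were present, and together they made up 1.99 to 2.01% of all RPKM in the library, with S100a9 at 2509 and 2569 RPKM and none of the 8 at 0. The pro-B controls had 0.403 to 0.625 RPKM in sum, with S100a8 and S100a9 at 0. Of the pre-B markers, Il2ra stood at 93.8 and 90.9 RPKM and Ms4a1 at 61.9 and 47.2 RPKM in pre-B cells, both below 2 RPKM in total pro-B controls. The 7 macrophage markers summed to 57.6 to 67.7 RPKM in pre-B cells and 4.57 to 5.59 in total pro-B controls (6 of 6 tested higher), and the 5 matched erythroid markers to 115 to 149.8 and 2.33 to 2.66 (5 of 5 higher). The part of these RNAs in the member values was not tested. Genotype differs as well, since pre-B cells are wild-type and pro-B controls carry Cre and a floxed allele, so stage and genotype cannot be told apart.

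c-Kit-high controls lay between total pro-B controls and pre-B cells for several members. Against total pro-B controls 6 members were called (1 up, 5 down), beside 50.8% of all genes. All 8 granulocyte markers were called higher in the c-Kit-high controls, and their part in the member values was not tested. Library numbers differ between the groups too, so cell type and series of libraries cannot be told apart. Cdkn1b was higher at 114 and 127 RPKM against 35.3 and 37.1 (log2 1.71 ± 0.17 SE, adjusted p = 1.4e-05). Myc was lower at 115 and 85.9 RPKM (log2 -1.42 ± 0.17 SE, adjusted p = 4.4e-05), as were Cdk4 (-1.22), Ccnd1 (-1.56), Ccnd2 (-0.72) and Mycn (-2.04). The Ccnd2 difference was -0.43 without c-Kit-high control replicate 2 (adjusted p = 0.0497) and -1.01 without replicate 1. Ccnd3 did not pass the test, at -0.11 ± 0.16 (SE, adjusted p = 0.578). The Mycn call was lost without either total pro-B control or without c-Kit-high control replicate 2 (-1.75), and Cdk6 passed without that same replicate (1.21). Pre-B cells against the same c-Kit-high controls gave 8 called members (1 up, 7 down), beside 49% of all genes, among them Myc at -3.24, Ccnd2 at -3.1 and Cdk6 at -2.72. Their number fell to 5 without c-Kit-high control replicate 1 or without pre-B replicate 1, with Ccnd3, Cdkn1b and Cdkn2c no longer called in either case.

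Rag2-null controls differed from Rag2-intact pro-B controls at 3 members (1 up, 2 down), beside 31.6% of all genes. Their library numbers lie far apart, so Rag2 genotype and series of libraries cannot be told apart here. Implied depths differed as well, at 29.8 and 26.9 M reads in Rag2-null and 11.6 and 10.2 in Rag2-intact controls. Ccnd1 was lower, 2.05 and 2.60 RPKM against 15.4 and 17.6 (log2 -2.4 ± 0.16 SE, adjusted p = 6.35e-06), and Myc was 145 and 209 against 259.7 and 273 RPKM (log2 -0.61 ± 0.17 SE, adjusted p = 0.0167). Cdk4 was higher, 799.9 and 952 RPKM against 598 and 535 (log2 0.63 ± 0.13 SE, adjusted p = 0.00339), but after quantile normalization the difference was -0.01, and the call was also lost in the fit of all 30 libraries. The Myc call was lost after median-ratio scaling (-0.45) and without Rag2-null control replicate 1 (-0.35) or either total pro-B control, in the fit of all 30 libraries and with the compared libraries alone. Cdkn1a, not called here, passed without Rag2-null control replicate 1 (1.44) and in the fit of all 30 libraries.

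Control pre-pro-B cells, set against total pro-B controls in a fit of all 30 libraries with 12272 genes, had 9 called members (3 up, 6 down), beside 55.5% of all genes. Mycn was higher by 2.86 ± 0.41 (SE, adjusted p = 3.64e-06), Cdkn1a by 1.25 ± 0.21 (SE, adjusted p = 2.11e-05) and Cdk4 by 0.83 ± 0.19 (SE, adjusted p = 0.00082), or by 0.46 after quantile normalization. Ccnd1, Ccnd3, Cdkn2c, Ccnd2, Cdkn1b and Myc were lower, with log2 differences from -2.44 for Ccnd1 to -0.7 for Myc, a call lost without pro-B control replicate 2. Only Cdk6 was not called (-0.04 ± 0.26, SE). Stage, loss of Ebf1, the Cre and floxed alleles of the pro-B controls, vector, culture and series of libraries cannot be told apart in this comparison.

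The order of levels over the 11 groups differs between members. Ccnd3 was highest in Rag2-null controls and lowest with Ik4056, with the 3 control pro-B groups above every other group, although neighbours among those 3 overlap. Ccnd2 was highest in deleted total pro-B cells, apart from all other groups, and lowest in pre-B cells, apart from the next group. Myc was lowest in pre-B cells, also apart, and its 3 highest groups, total pro-B controls, deleted Rag2-null and deleted total pro-B cells, overlap. Cdkn1a was lowest in deleted total pro-B and in pre-B cells, which overlap each other. Cdkn1b ran from pre-B through c-Kit-high control and c-Kit-high deleted cells, each apart from the next.

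Other genes of the G1 pathway were counted from lists, to be read beside the 23.4% of all genes called in total pro-B cells after deletion, 17.2% among c-Kit-high, 22.3% among Rag2-null and 19.4% with hairpins. Of 8 genes of cyclins E and A with CDK2 and its regulators, 0 rose and 2 fell in total pro-B cells after deletion, 0 and 1 among c-Kit-high, 0 and 2 among Rag2-null and 0 and 2 with hairpins. Ccne1, the cyclin E1 gene that acts after the D cyclins, was lower, with log2 differences of -1.45, -0.89 and -0.47 in total pro-B, Rag2-null and hairpin libraries, with adjusted p of 6.54e-05, 0.00288 and 0.00102. In c-Kit-high cells Ccne1 was 21.3 ± 0.667 RPKM in controls and 20.4 ± 1.03 after deletion (SD, n = 2), and the effect differed from that in total pro-B cells by 1.39 (adjusted p = 0.0061 in limma). Among 13 retinoblastoma and E2F genes, 1 rose and 2 fell in total pro-B cells after deletion. In c-Kit-high cells 0 rose and 1 fell, in Rag2-null cells 0 and 1, and with hairpins 0 and 2. E2f2 was called lower in all 4 comparisons, at -0.55, -0.31, -0.89 and -0.81. Cdkn2a, whose products inhibit CDK4 and stabilise p53, was lower, with log2 differences of -2.47 ± 0.63 (SE, adjusted p = 0.0177) in total pro-B and -2.36 ± 0.63 (adjusted p = 0.0231) in Rag2-null cells, which makes 1 and, with Cdkn3, 2 called of 3 other inhibitor genes tested. Of 10 G1 ubiquitin ligase genes, Skp2, which targets p27 for destruction, was the one call in total pro-B cells, at -0.71.

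Genes downstream of the cyclins were counted in the same way. Of 18 E2F target genes, 1 rose and 0 fell after deletion in total pro-B cells, 3 rose and 0 fell in c-Kit-high cells, 0 changed in Rag2-null cells, and 0 rose and 4 fell with hairpins. The list medians were -0.11, 0.09, -0.17 and -0.15. Of 16 mitotic genes none was called in total pro-B, c-Kit-high or hairpin libraries, and 5 fell in Rag2-null cells, with Cenpa, a centromere histone, at -0.65. In pre-B cells against total pro-B controls all 18 E2F targets and all 16 mitotic genes were lower, beside 36.9% of all genes, with medians of -2.14 and -1.75 where the median of all genes was -0.07. The difference was -2.82 for Tyms, the thymidylate synthase gene, and -2.22 for Cdk1, the mitotic kinase gene.

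Of 25 Myc target genes, 25 were lower in pre-B than in total pro-B cells and 23 lower in c-Kit-high than in total pro-B controls, with medians of -2.44 and -1.46. Of all genes 36.9% and 23% were called lower in these comparisons, and the all-gene medians were -0.07 and 0.08. The log2 differences in this order were -4.24 and -2.08 for Srm, the spermidine synthase gene, and -3.57 and -2.34 for Ldha, the gene of lactate dehydrogenase A. After deletion 1, 2 and 2 of the 25 fell in total pro-B, c-Kit-high and Rag2-null cells, with Ldha at -1.06 in total pro-B and -1.18 in Rag2-null cells, and 0, 0 and 1 rose, with Odc1 at 0.91. Of the partners and rivals of Myc in its dimer network, Mxd1 and Mnt, repressors that compete for Max, rose by 0.87 and 0.78 after deletion in total pro-B cells and by 1.35 and 0.5 in Rag2-null cells. In pre-B cells Mxd4 and Mxd1 were higher by 3.16 and 3.0.

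Upstream, 16 genes of IL-7 receptor, STAT5 and FoxO signalling were counted. After deletion 3 rose and 3 fell in total pro-B cells, 1 and 4 in c-Kit-high and 5 and 2 in Rag2-null cells. With hairpins 3 of 15 tested rose and 2 fell. Of all genes 23.4%, 17.2%, 22.3% and 19.4% were called in these 4 comparisons. Foxo1, a factor that represses D-cyclin genes and activates Cdkn1b, was lower after deletion in total pro-B (-1.88) and c-Kit-high cells (-1.1) and rose by 0.75 with hairpins. In Rag2-null cells Foxo1 was 40.9 ± 2.88 RPKM in controls and 51.6 ± 8.26 after deletion (SD, n = 2), and the effect differed from that in total pro-B cells by 2.2 (adjusted p = 8.39e-05 in limma). Pim1, a STAT5-induced kinase gene, was lower in the same 2 settings, at -2.0 and -0.74. Irf4 rose by 1.78 in total pro-B cells, and Bcl6 by 1.5 in Rag2-null cells and by 1.23 with hairpins. Pre-B markers moved with the deletion in the Rag2-intact settings, where 4 genes summed to 47.9 to 56.1 RPKM in total pro-B controls and 527 to 569 after deletion, and to 47.7 to 56.5 and 287 to 392 in c-Kit-high cells, carried by Cd74 and Cd22. Il2ra and Ms4a1 stayed at 0 to 1.35 and 0.301 to 2.12 RPKM there. In Rag2-null cells the sums were 14.8 to 19.7 and 20.3 to 28.6 RPKM. The part of these differences in the cyclin values was not tested.

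Across the 11 group means, with 12272 genes compared, the genes most like the members were found by Pearson's r of log2(RPKM + 1), as a description. For Ccnd3 it was Ppp3cc (r = 0.977), for Ccnd2 Pip4p2 (r = 0.966), for Cdk4 Banf1 (r = 0.992) and for Myc Cand1 (r = 0.985). The nearest gene to Ccnd1 was Lima1 (r = 0.876), a looser match than for any other member. Among the members themselves Cdk4 ran with Myc (r = 0.837) and against Cdkn1b (r = -0.957), while Ccnd2 and Ccnd3 were nearly unrelated (r = -0.15). Groups share library series and stage, so these values carry no test.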

How the data were processed

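RNA of mouse cells was sequenced from 30 libraries in 11 groups, and 18 chromatin libraries were not analysed here. The values used are RPKM per gene model as deposited by the authors, per the file headers. Polyadenylated RNA and strand-specific cDNA were used, per the labels' protocols. The submitters' processing notes name TopHat 1.4.1, HTSeq 0.5.3, DESeq 1.8.3 and the mm9 build, with roles not given in the sources used here. No raw counts were used, so no count model was fitted. Of 21025 gene models, 20661 were matched to a symbol by accession.

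Each comparison was a two-sided contrast in limma 3.58.1 (R 4.3.3) on log2(RPKM + 1), with a mean trend, robust moderation and Benjamini-Hochberg adjustment over all genes with at least 1 RPKM in 2 libraries of the fit. The pro-B and pre-B libraries (14) shared a fit, the knock-down libraries (16) another, and pre-pro-B against pro-B used all 30. The fitting step was tested on simulated data with independent scatter between libraries, so without the runs seen among the knock-down libraries. Tables were handled with Python 3.11.15, pandas 2.3.3, numpy 2.4.6 and matplotlib 3.10.9.

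The members and lists were chosen with earlier results of these data known. Every member is named, and from each list at most the 3 called genes with the largest absolute difference in a comparison, with genes most like a member. Some items that this rule takes are not reported here. No pair of libraries was identical (0 of 435), and r within groups was 0.964 to 0.992. Replicate numbers of the knock-down groups follow 4 runs of consecutive library numbers, taken from the labels. The deviations from group means correlated at 0.512 or more in all 24 same-run pairs, with a median of 0.761 against -0.234 between runs, so the run was also fitted as a block. Other alternatives were a pseudocount of 0.1, no filter, quantile normalization, median-ratio scaling, other library sets and leaving out each replicate. Promoter windows are from RefSeq on GRCm38.p6, and no coordinates were converted from mm9.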

Additional observations from a re-analysis of the deposited data

Results flagged for a closer look

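For 4 results the effect of Ikzf1 deletion differed between settings by an interaction test in limma. Relative to total pro-B cells, the Ccnd1 effect in Rag2-null cells was higher by 2.66 ± 0.23 (SE, adjusted p = 5.16e-05) on the log2 scale, with both Rag2-null deleted libraries above both controls and both total pro-B deleted libraries below both controls. The Ccnd2 effect differed by -1.04 ± 0.25 (SE, adjusted p = 0.0145). In c-Kit-high cells the Ccnd3 effect differed from that in total pro-B cells by 0.89 ± 0.23 (SE, adjusted p = 0.037) and the Cdkn1a effect by 2.15 ± 0.52 (SE, adjusted p = 0.0346). Of all genes 13.1% were called in the Rag2-null interaction and 6.7% in the c-Kit-high one. The calls of Ccnd2, Ccnd3 and Cdkn1a were lost when some single libraries were left out, as given above. Both tests use the same total pro-B libraries, and each setting has 2 libraries per genotype.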

How the results depend on the processing

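Of 1660 member values under the alternatives, 1560 stayed on their side of the threshold with no called value changing sign, 65 lost a call, 34 gained one and 1 called value changed sign. Values not called in either setting may differ in sign among the 1560. That one was Cdk4 between Rag2-null and Rag2-intact controls, at -0.0138 after quantile normalization, and the cause was not tested. The number of called members in the deletion effect of c-Kit-high minus total pro-B cells (2) was 1 with no filter, 3 with the compared libraries alone and 0 to 1 without a replicate. For Rag2-null minus total pro-B cells (2) it was 4 with all 30 libraries and 1 to 5 without a replicate. It was 5 for total pro-B deletion (3) with the compared libraries alone, and 4 for c-Kit-high deletion (2) after quantile normalization. Without a replicate it was 2 to 4 for Rag2-null deletion (4) and 5 to 7 for pre-B against c-Kit-high cells (8). With the run as a replicate block it was 8 for the knock-down (5) and 4 between hairpins (0), where leaving out a replicate gave 0 to 1. The block changed no other call of a member.

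Over all genes, the called number was 5575 with the block against 2086 for the knock-down, 2407 against 358 between hairpins and 9 against 0 for Ren713, which had 0 to 1 without a replicate. Between hairpins it was 163 with the compared libraries alone and fell to 230 without Ik4056 replicate 1. With the compared libraries alone it was 1350 for c-Kit-high deletion (2049) and 1547 for Rag2-null deletion (2667), and it was 1954 between Rag2-null and Rag2-intact controls (3777) with all 30 libraries. Leaving out a replicate lowered it to 1688 for total pro-B (2791), 1322 for c-Kit-high and 1577 for Rag2-null deletion, to 327 and 918 for the interactions (800 and 1562), and to 2167 between Rag2-null and Rag2-intact controls. The share of called genes that were higher moved from 67.4% to 51.7% (quantile) and 56.9% (median-ratio) for c-Kit-high deletion, from 69.4% to 57.9% and 50.5% for Rag2-null deletion and from 68.9% to 52.5% and 56.8% for the knock-down. It moved from 34.4% to 45% and 53.9% between Rag2-null and Rag2-intact controls, from 39.1% to 50.4% and 52.9% for pre-B against c-Kit-high cells, and from 78.8% to 62.6% (quantile) between hairpins. The median of all genes moved by -0.13 for Rag2-null deletion (quantile) and by 0.12 and 0.15 for pre-B against c-Kit-high cells (log2). With 2 libraries per group for pro-B and pre-B cells, and few reads for Mycn there, small differences are not resolved.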
